A study of Homo sapiens with 8 samples.

Results

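The 10 genes of the oxidative stress response described here were measured in A375 melanoma cells that carried a plasmid with SLNCR1, a long noncoding RNA, or with a part of it. They are AKR1C1, AKR1C2 and AKR1C3 (aldo-keto reductases), NQO1 and HMOX1 (quinone and heme detoxification), OSGIN1 (a growth inhibitor), TXN and TXNRD1 (thioredoxin and its reductase), and FTH1 and FTL (the ferritin chains). They were taken by identifier, as 10 of the 56638 entries in each of the 3 deposited tables, and all 10 had reads in all 8 libraries.

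A375 is an established human line from a malignant melanoma of the skin. The study compared 4 groups of 2 libraries each: cells with full-length SLNCR1, cells with SLNCR1 conserved, cells with SLNCR1 delta conserved, and cells with the empty vector. By their names, the SLNCR1 conserved plasmid carries a conserved stretch of the RNA and the SLNCR1 delta conserved plasmid lacks it. All groups, the vector group included, received the pcDNA3.1(-) plasmid with Lipofectamine 2000 at 24 h after seeding, and were harvested 48 h later. The medium was DMEM with 10% serum. Transfection was transient, so a library averages cells with and without plasmid. The labels number the 2 libraries of each group without saying whether separate cultures gave them. The p-values therefore measure nothing but the spread between the libraries at hand, and that spread may be technical.

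NRF2, encoded by NFE2L2, is a transcription factor that KEAP1 holds at a low level by sending it for degradation. Electrophiles and oxidants disable KEAP1, NRF2 then accumulates, and with small MAF proteins it binds antioxidant response elements in the promoters and enhancers of detoxification and redox genes. BACH1 is a heme-sensitive repressor that occupies many of the same elements, with HMOX1 as its best known target. Ferritin genes are regulated at such elements and also, after transcription, by iron.

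The deposited tables give group means. The whole reads of the single libraries were solved from them, and the deeper library of a group is called a and the shallower one b here, because they could not be tied to the labels' replicate numbers. The total ranged from 8222868 to 12015394 reads. All 4 libraries of the SLNCR1 and SLNCR1 delta conserved groups (8222868 to 10097194 reads) were shallower than both vector libraries (11321294 and 12015394 reads), so depth and construct cannot be told apart in those comparisons. The melanoma markers summed to 8704 to 10239 normalized counts in the 8 libraries, with SOX10 and AXL at high levels and TYR and DCT at or near 0. Keratinocyte markers summed to 78.4 to 115, fibroblast markers to 663 to 830.2, endothelial markers to 12.1 to 27.5 and leukocyte markers to 42.6 to 78.4 normalized counts, with PECAM1 at 0 in all 8 libraries. PDGFRB made up most of the fibroblast sum, with group means of 441 to 497. In the fibroblast list, COL3A1 stood at 53.4 normalized counts in SLNCR1 conserved library a and at 51.2 and 45.5 in the SLNCR1 delta conserved libraries, against 2.0 to 4.4 in the other 5 libraries.

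SLNCR1 is a RefSeq synonym of LINC00673, which no entry of the tables is named for. In GENCODE 29 the RefSeq transcripts of LINC00673 belong to LINC00511, so the transfected RNA was followed through that entry. LINC00511 had 865 and 886 normalized counts with SLNCR1, 1052 and 1141 with SLNCR1 conserved, 1155 and 870.1 with SLNCR1 delta conserved, and 628 and 621 with vector. All 6 construct libraries stood above both vector libraries. The limma difference from vector was 0.49 ± 0.10 (log2 ± SE, adjusted p = 0.0044) for SLNCR1, 0.81 ± 0.10 (adjusted p = 0.00278) for SLNCR1 conserved and 0.68 ± 0.10 (adjusted p = 0.000296) for SLNCR1 delta conserved. In the authors' deposited table LINC00511 passed with SLNCR1 (0.49, adjusted p = 0.00559) and SLNCR1 conserved (0.80, adjusted p = 5.89e-15) and did not pass with SLNCR1 delta conserved (0.69, adjusted p = 0.145).

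The promoters of 4 of the genes are shown because AKR1C1 and AKR1C2 lie beside each other and are close copies, and because TXNRD1 and OSGIN1 hold the motifs searched. Each is the 250 bases before a RefSeq transcription start, in the direction of the gene, in build GRCh38.p14, and capitals mark a motif match. AKR1C1 is at chr10:4963165-4963414 on the plus strand, AKR1C2 at chr10:5003858-5004107 on the minus strand, TXNRD1 at chr12:104215529-104215778 on the plus strand and OSGIN1 at chr16:83952990-83953239 on the plus strand.
AKR1C1: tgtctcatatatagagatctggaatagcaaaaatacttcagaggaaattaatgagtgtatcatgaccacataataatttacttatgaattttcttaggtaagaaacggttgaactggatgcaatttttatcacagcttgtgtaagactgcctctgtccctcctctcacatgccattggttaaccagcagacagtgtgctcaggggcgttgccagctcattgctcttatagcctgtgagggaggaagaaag
AKR1C2: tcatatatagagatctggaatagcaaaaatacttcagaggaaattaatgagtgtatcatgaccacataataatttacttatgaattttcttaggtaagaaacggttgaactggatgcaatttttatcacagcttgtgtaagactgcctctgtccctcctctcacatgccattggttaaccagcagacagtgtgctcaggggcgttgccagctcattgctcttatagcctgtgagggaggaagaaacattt
TXNRD1: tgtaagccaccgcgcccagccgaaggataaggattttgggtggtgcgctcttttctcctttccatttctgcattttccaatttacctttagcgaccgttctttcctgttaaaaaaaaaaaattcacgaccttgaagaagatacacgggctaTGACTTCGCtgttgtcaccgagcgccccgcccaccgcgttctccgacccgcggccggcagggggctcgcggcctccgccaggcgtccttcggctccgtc
OSGIN1: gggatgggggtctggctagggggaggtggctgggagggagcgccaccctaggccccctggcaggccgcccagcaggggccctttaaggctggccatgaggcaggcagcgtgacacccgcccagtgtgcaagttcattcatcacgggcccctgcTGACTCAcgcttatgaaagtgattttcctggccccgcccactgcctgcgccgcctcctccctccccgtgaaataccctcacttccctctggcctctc
The core of the antioxidant response element, TGACNNNGC, was searched on both strands. It occurred in 2 of the 10 windows of the members, the shown TXNRD1 window, where it begins 99 bases before the start, and the window of another TXNRD1 start, against 10.9% of all 35116 windows of the same length. TGACTCA, the letters of an AP-1 site, occurred in OSGIN1 alone among the 10 windows, 97 bases before the start, against 4.20% of all windows. The search covers 8 of the 10 genes, some with more than a single start, and none of their enhancers. The AKR1C1 and AKR1C2 windows share an unbroken run of 245 bases, while AKR1C3 shares runs of at most 19 bases with either.

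Against vector, 8 of the 10 genes passed by limma with full-length SLNCR1, where 11.3% of all genes passed. With SLNCR1 delta conserved 8 passed, where 10.4% of all genes did, and with SLNCR1 conserved 0, where 0.00622% of all genes did. The authors' deposited table had 1 higher and 1 lower with SLNCR1, where 0.882% of all genes passed. It had 5 higher and 1 lower with SLNCR1 delta conserved (2.26% of all genes) and 0 with SLNCR1 conserved (0.0175%). With library depth as a further limma term 0 passed with SLNCR1 or SLNCR1 delta conserved, where 47 and 13 of all 16073 genes did. Depth and construct cannot be told apart in those comparisons. By limma AKR1C1 was 1.51-fold higher and OSGIN1 stood at 0.575 times its vector level with SLNCR1, and at 1.49-fold and 0.57 times with SLNCR1 delta conserved, while NQO1, TXN and the ferritins were higher by smaller amounts. HMOX1 passed in no comparison. These are averages over a dish of cells, in which more RNA per cell and a changed mix of cells cannot be told apart.

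With SLNCR1, 2 of the 10 genes passed in the authors' deposited table at an adjusted p under 0.05, AKR1C1 higher and OSGIN1 lower, where 0.882% of all 33548 genes tested passed, 0.0388% higher and 0.844% lower. Those tested include genes with few reads. With the authors' p re-adjusted over the 16073 genes with a mean of at least 10, 361 of all genes passed, 15 higher. By limma on log2(normalized count + 1) of the 8 libraries, 7 were higher (AKR1C1, AKR1C2, AKR1C3, NQO1, TXN, FTH1, FTL) and OSGIN1 was lower, where 11.3% of 16073 genes passed, 3.93% higher and 7.4% lower. Both SLNCR1 libraries stood above both vector libraries for 8 of the 10 genes and below them for OSGIN1, against 27.2% and 25.4% of all genes. The members' median difference was 0.30 (log2), against -0.00041 over all genes. The share of higher genes among all that passed was 34.7%, and 21.5% with trimmed-mean scaling or 26.2% with scaling to library totals.

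With SLNCR1 delta conserved, 6 passed in the authors' deposited table, 5 higher (AKR1C1, NQO1, TXN, FTH1, FTL) and OSGIN1 lower, where 2.26% of 34744 genes passed, 1.11% higher and 1.14% lower. With the authors' p re-adjusted over the 16073 genes with a mean of at least 10, 1108 of all genes passed, 570 higher. By limma 7 were higher (AKR1C1, AKR1C3, NQO1, TXN, TXNRD1, FTH1, FTL) and OSGIN1 was lower, where 10.4% of genes passed, 5.18% higher and 5.24% lower. The libraries stood above vector for 8 genes and below for OSGIN1, against 27.7% and 26% of all genes. The members' median was 0.32 (log2), against -0.0028 over all genes. The share of higher genes among all that passed was 49.7%, and 32.1% with trimmed-mean scaling or 30.2% with scaling to library totals.

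With SLNCR1 conserved, 0 of the 10 genes passed in the authors' deposited table, where 0.0175% of 34347 genes passed. By limma 0 passed as well, where 0.00622% of genes passed and 874 of 16073 genes had an unadjusted p under 0.05. The smallest unadjusted p among the members was 0.05 for OSGIN1 by limma. The members' median was 0.07 (log2), against 0.02 over all genes.

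**Figure D1:**
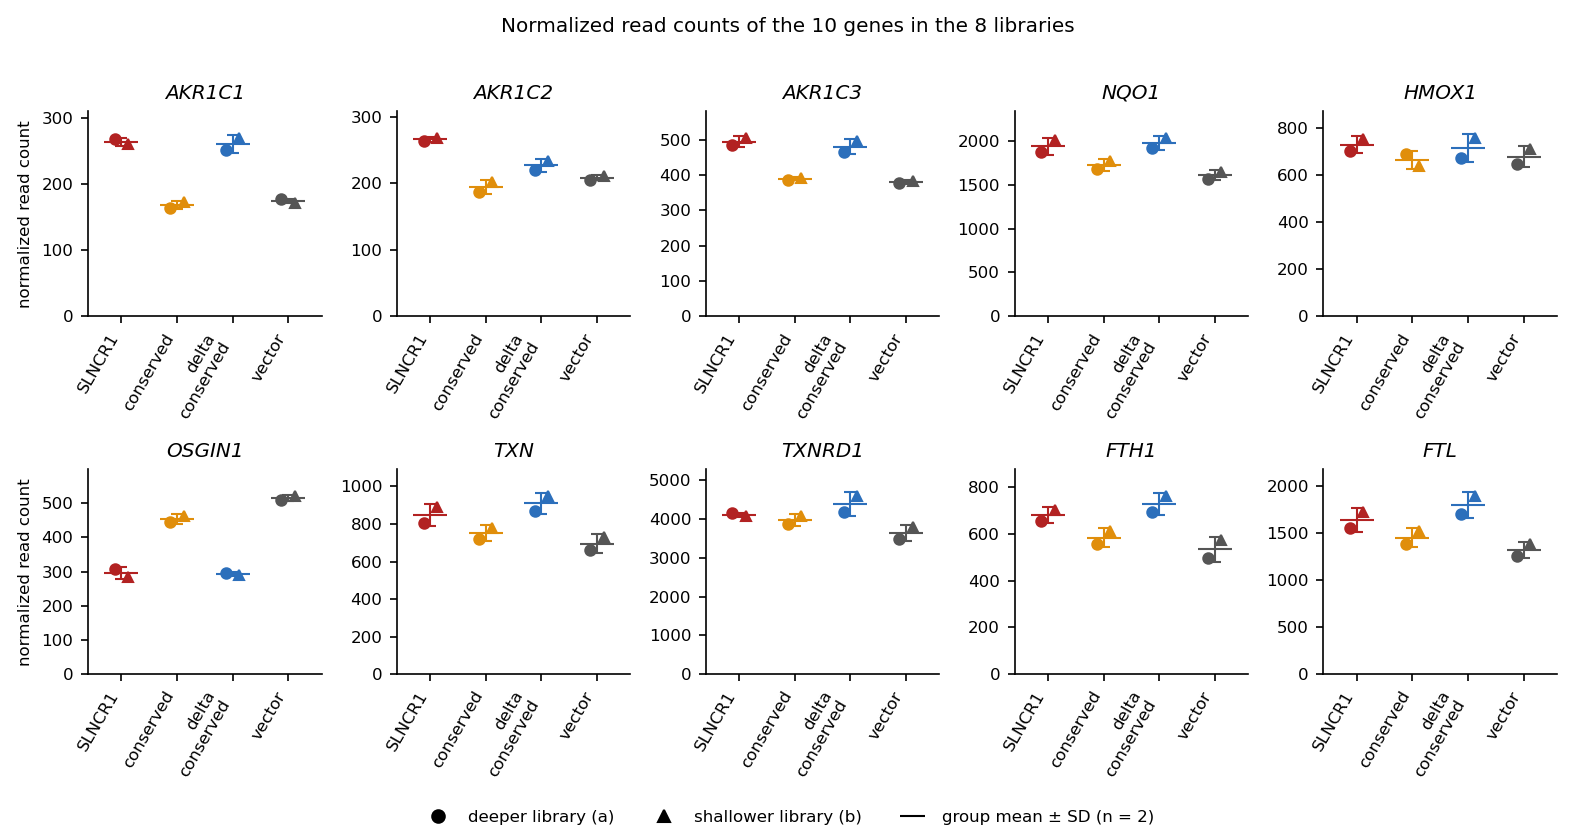
Normalized read counts (vertical axis, from 0) of the 10 genes in the 8 libraries, with circles for the deeper and triangles for the shallower library of a group and bars for the group mean ± SD (n = 2). AKR1C1 stands at 251 to 270.2 in the SLNCR1 and SLNCR1 delta conserved libraries against 164 to 177 in the other 4, and OSGIN1 shows the opposite order.

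The aldo-keto reductases AKR1C1, AKR1C2 and AKR1C3 use NADPH to reduce ketosteroids, prostaglandins and lipid aldehydes, and are among the most NRF2-responsive human genes. AKR1C1, a 20-alpha-hydroxysteroid dehydrogenase, had 269 and 260.5 normalized counts with SLNCR1, 164 and 173 with SLNCR1 conserved, 251 and 270.2 with SLNCR1 delta conserved, and 177 and 172 with vector. The SLNCR1 and SLNCR1 delta conserved libraries were high, without overlap with the other 4, and SLNCR1 conserved overlapped with vector. The mean was 265 ± 5.82 with SLNCR1 (SD, n = 2), 168 ± 6.42 with SLNCR1 conserved, 261 ± 13.3 with SLNCR1 delta conserved and 175 ± 3.54 with vector. By limma AKR1C1 was 1.51-fold higher than in vector with SLNCR1 (95% interval 1.29 to 1.76, adjusted p = 0.00188) and 1.49-fold higher with SLNCR1 delta conserved (log2 difference 0.57 ± 0.11 SE, adjusted p = 0.00304). With SLNCR1 conserved the log2 difference was -0.05 ± 0.11 (SE, adjusted p = 0.943). The authors' deposited table gave log2 ratios of 0.60 for SLNCR1 (adjusted p = 0.0378), -0.07 for SLNCR1 conserved (adjusted p = 1) and 0.57 for SLNCR1 delta conserved (adjusted p = 0.0174). Without SLNCR1 delta conserved library b the limma call for that construct was lost (0.52, adjusted p = 0.0601).

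AKR1C3, the prostaglandin F and 17-beta-hydroxysteroid reductase of the family, had 484 and 504 normalized counts with SLNCR1, 386 and 392 with SLNCR1 conserved, 465 and 495 with SLNCR1 delta conserved, and 377 and 383 with vector. As for AKR1C1, all SLNCR1 and SLNCR1 delta conserved libraries stood above the other 4, but here both SLNCR1 conserved libraries also stood above both vector libraries. Its limma difference from vector was 0.38 ± 0.08 (log2 ± SE, adjusted p = 0.00738) with SLNCR1 and 0.34 ± 0.08 (adjusted p = 0.0139) with SLNCR1 delta conserved. AKR1C3 did not pass in the authors' deposited table, with log2 ratios of 0.38 (adjusted p = 0.245) for SLNCR1 and 0.33 (adjusted p = 0.138) for SLNCR1 delta conserved. Both limma calls were lost when vector library a was left out (adjusted p = 0.0843 and 0.118), and that of SLNCR1 delta conserved without its library b (0.29, adjusted p = 0.18).

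AKR1C2, a 3-alpha-hydroxysteroid and bile acid binding reductase, had 264 and 268 normalized counts with SLNCR1, 187 and 202 with SLNCR1 conserved, 220.3 and 234 with SLNCR1 delta conserved, and 206 and 211 with vector. No group overlapped with another, and SLNCR1 stood highest and SLNCR1 conserved lowest. The limma difference from vector was 0.35 ± 0.10 (log2 ± SE, adjusted p = 0.04) with SLNCR1, a call that 13 of 17 alternative settings lost, among them trimmed-mean scaling and the omission of any library but SLNCR1 library a (0.33 to 0.37, adjusted p = 0.0569 to 0.245). It was 0.12 ± 0.10 (adjusted p = 0.54) with SLNCR1 delta conserved and -0.10 ± 0.10 (adjusted p = 0.879) with SLNCR1 conserved. The direct difference of SLNCR1 from SLNCR1 delta conserved was 0.23 (log2, 95% interval 0.0076 to 0.45, adjusted p = 0.605).

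The AKR1C transcripts are alike, and 52.2% of all 50-base windows in AKR1C2, 28.7% in AKR1C1 and 12.1% in AKR1C3 occur in transcripts of other genes, mostly of each other. The sources used here do not give how the authors' counting treated reads that match several genes, so how the reads divide among the 3 genes is uncertain. Summed over all 8 AKR1C entries, 1046 and 1051 normalized counts were found with SLNCR1, 752 and 789 with SLNCR1 conserved, 955 and 1013 with SLNCR1 delta conserved, and 783 and 776 with vector. The sum thus kept SLNCR1 and SLNCR1 delta conserved above the other 4 libraries, and AKR1C4 and pseudogenes held between 1.26% and 3% of its reads.

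OSGIN1, an oxidative stress induced growth inhibitor, went the other way. It had 309 and 284 normalized counts with SLNCR1, 444 and 464 with SLNCR1 conserved, 297 and 289 with SLNCR1 delta conserved, and 509 and 521 with vector. The SLNCR1 and SLNCR1 delta conserved libraries were low, the vector libraries highest, and SLNCR1 conserved lay between without overlap. The means were 296 ± 17.9 with SLNCR1 (SD, n = 2), 454 ± 13.8 with SLNCR1 conserved, 293 ± 5.58 with SLNCR1 delta conserved and 515 ± 8.56 with vector. By limma OSGIN1 fell by 0.80 on the log2 scale with SLNCR1 (SE 0.09, adjusted p = 1.46e-05) and fell by 0.81 with SLNCR1 delta conserved (SE 0.09, adjusted p = 1.15e-05). With SLNCR1 conserved the difference was -0.18 ± 0.09 (log2 ± SE, adjusted p = 0.83). The authors' deposited table gave -0.80 (adjusted p = 5.36e-06) for SLNCR1, -0.20 (adjusted p = 1) for SLNCR1 conserved and -0.82 (adjusted p = 2.53e-08) for SLNCR1 delta conserved. Reads of another gene, AC009119.2, annotated over exons of OSGIN1 on the same strand, cannot be told apart from its own where they overlap.

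NQO1, the quinone reductase often used as a readout of NRF2 activity, had 1869.9 and 2005 normalized counts with SLNCR1, 1675 and 1769.85 with SLNCR1 conserved, 1923 and 2032 with SLNCR1 delta conserved, and 1567 and 1648 with vector. The vector libraries were lowest, SLNCR1 conserved lay above them without overlap, and SLNCR1 and SLNCR1 delta conserved were highest and overlapped with each other. The limma difference from vector was 0.27 ± 0.07 (log2 ± SE, adjusted p = 0.0204) with SLNCR1, 0.10 ± 0.07 (adjusted p = 0.83) with SLNCR1 conserved and 0.30 ± 0.07 (adjusted p = 0.0104) with SLNCR1 delta conserved. In the authors' deposited table the log2 ratio was 0.27 (adjusted p = 0.352) for SLNCR1 and 0.30 (adjusted p = 0.0133) for SLNCR1 delta conserved. The limma calls were lost when vector library a was left out (adjusted p = 0.182 and 0.109) and without library b of the construct group (adjusted p = 0.0919 for SLNCR1 and 0.17 for SLNCR1 delta conserved).

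HMOX1, the heme oxygenase that frees iron from heme, had 701 and 753 normalized counts with SLNCR1, 689 and 637 with SLNCR1 conserved, 672 and 756 with SLNCR1 delta conserved, and 646 and 708 with vector. The libraries of each construct group overlapped with those of vector. The limma difference from vector was 0.10 (log2, 95% interval -0.07 to 0.28, adjusted p = 0.446) with SLNCR1, -0.03 (interval -0.20 to 0.14, adjusted p = 0.96) with SLNCR1 conserved and 0.08 (interval -0.10 to 0.25, adjusted p = 0.642) with SLNCR1 delta conserved. The difference between the HMOX1 and NQO1 or AKR1C1 responses was not tested.

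TXN encodes thioredoxin, which reduces disulfides in proteins, and TXNRD1 the cytosolic selenoprotein that recharges it with electrons from NADPH. TXN had 807 and 889.6 normalized counts with SLNCR1, 722 and 781 with SLNCR1 conserved, 871 and 949.6 with SLNCR1 delta conserved, and 659.98 and 731 with vector. SLNCR1 and SLNCR1 delta conserved stood above both vector libraries, and SLNCR1 conserved overlapped with vector. The limma difference from vector was 0.29 ± 0.08 (log2 ± SE, adjusted p = 0.0318) with SLNCR1, 0.11 ± 0.08 (adjusted p = 0.834) with SLNCR1 conserved and 0.39 ± 0.08 (adjusted p = 0.00617) with SLNCR1 delta conserved. In the authors' deposited table TXN passed with SLNCR1 delta conserved (0.38, adjusted p = 0.00767) and not with SLNCR1 (0.29, adjusted p = 0.452). The limma calls were lost when vector library a was left out (adjusted p = 0.294 and 0.111) and without library b of the construct group (adjusted p = 0.154 and 0.129), and that of SLNCR1 also without either SLNCR1 conserved library (adjusted p = 0.0519).

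TXNRD1 had 4148 and 4070.45 normalized counts with SLNCR1, 3876 and 4079.65 with SLNCR1 conserved, 4172 and 4602 with SLNCR1 delta conserved, and 3494 and 3792 with vector. All 6 construct libraries stood above both vector libraries. The limma difference passed with SLNCR1 delta conserved (0.27 ± 0.07, log2 ± SE, adjusted p = 0.0255), and was 0.17 ± 0.07 (adjusted p = 0.122) with SLNCR1 and 0.13 ± 0.07 (adjusted p = 0.83) with SLNCR1 conserved. TXNRD1 did not pass in the authors' deposited table, where its adjusted p was 0.163 for SLNCR1 delta conserved. The limma call was lost without vector library a, without either SLNCR1 delta conserved library and without either SLNCR1 conserved library (0.20 to 0.34, adjusted p = 0.0513 to 0.327).

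FTH1 and FTL encode the heavy and light chains of ferritin, the shell that stores iron, and the heavy chain oxidizes the iron it takes up. FTH1 had 655 and 704 normalized counts with SLNCR1, 557 and 612 with SLNCR1 conserved, 694 and 763 with SLNCR1 delta conserved, and 496 and 572 with vector. FTL had 1554 and 1732 with SLNCR1, 1382 and 1523 with SLNCR1 conserved, 1703 and 1899 with SLNCR1 delta conserved, and 1260.03 and 1387 with vector. For both chains the SLNCR1 delta conserved libraries and the SLNCR1 libraries all stood above both vector libraries, and those of SLNCR1 conserved overlapped with vector. The limma difference of FTH1 from vector was 0.35 ± 0.09 (log2 ± SE, adjusted p = 0.0187) with SLNCR1, 0.13 ± 0.09 (adjusted p = 0.83) with SLNCR1 conserved and 0.45 ± 0.09 (adjusted p = 0.00402) with SLNCR1 delta conserved. That of FTL was 0.31 ± 0.08 (adjusted p = 0.0216) with SLNCR1, 0.13 ± 0.08 (adjusted p = 0.83) with SLNCR1 conserved and 0.44 ± 0.08 (adjusted p = 0.00256) with SLNCR1 delta conserved. In the authors' deposited table FTH1 (0.45, adjusted p = 0.0149) and FTL (0.44, adjusted p = 0.00706) passed with SLNCR1 delta conserved and with neither other construct. Without vector library a the limma calls were lost for FTH1 (adjusted p = 0.256 with SLNCR1 and 0.0934 with SLNCR1 delta conserved) and for FTL (0.239 and 0.0581). Without library b of the construct group they were lost as well, for FTH1 (0.0622 and 0.098) and for FTL (0.103 and 0.0807).

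The ferritins have processed pseudogenes that carry nearly their own sequence, and 40.4% of the 50-base windows of FTH1 and 18.3% of those of FTL occur in transcripts of other genes. Entries for FTH1 pseudogenes held 14.4% to 18.8% of the reads of the family in the 8 libraries, and those for FTL pseudogenes 2.75% to 3.80%. Summed over its pseudogenes, FTH1 had 774 and 856 normalized counts with SLNCR1, 681 and 736 with SLNCR1 conserved, 834 and 892 with SLNCR1 delta conserved, and 611 and 704 with vector. The sum kept the order of the groups. BEST1 lies over exons of FTH1 on the other strand, and AC092115.2 over exons of NQO1, and without strand their reads cannot be told apart.

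**Figure D2:**
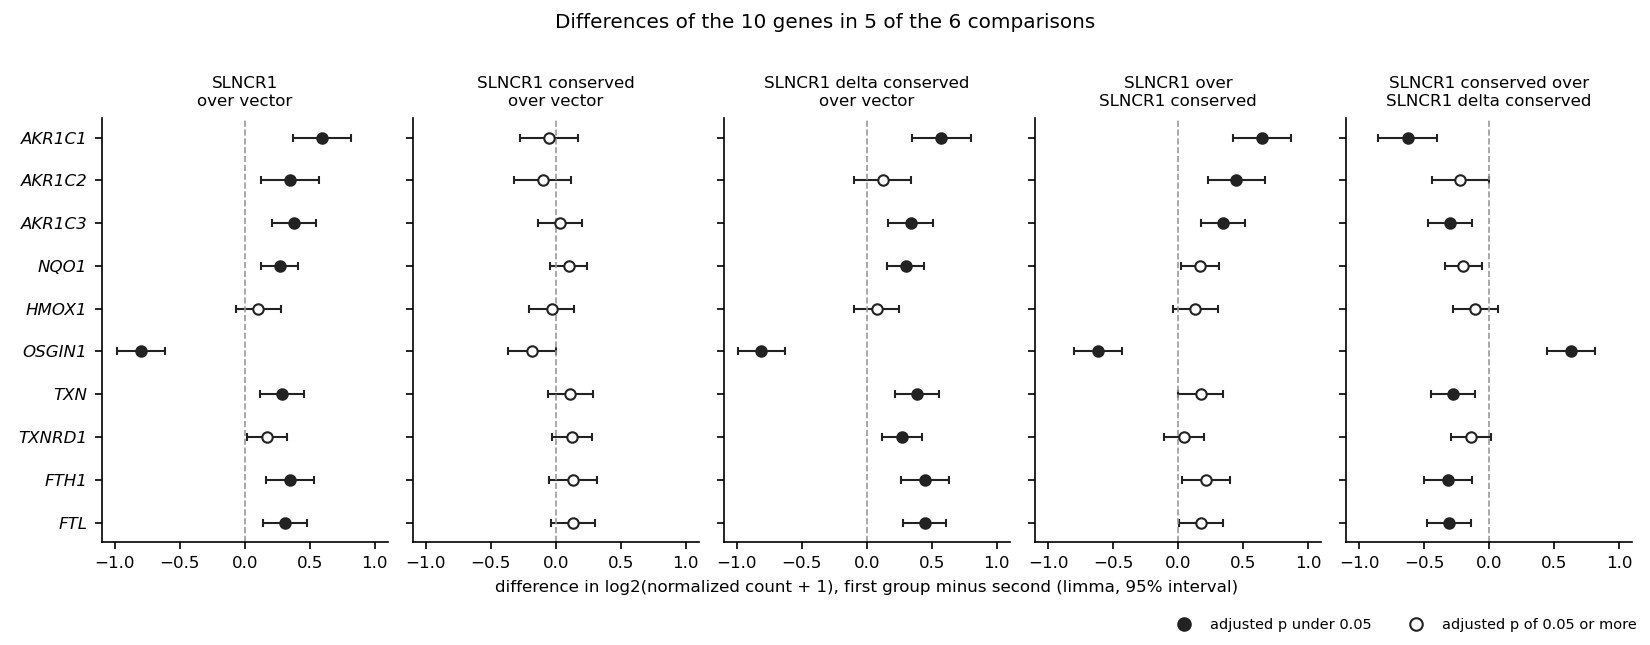
Differences in log2(normalized count + 1) of the 10 genes, the group named first minus the other, with 95% limma intervals, and filled points where the adjusted p is under 0.05. OSGIN1 is the gene left of 0 with SLNCR1 and with SLNCR1 delta conserved, and all points are open with SLNCR1 conserved over vector.

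The reads of the ferritins and thioredoxin before normalization hardly differed between libraries. FTL had 1544 and 1569 reads with SLNCR1, 1551 and 1523 with SLNCR1 conserved, 1531 and 1504 with SLNCR1 delta conserved, and 1556 and 1561 with vector. Its highest library exceeded its lowest by 4.32%, that of FTH1 by 7.78% and that of TXN by 9.44%, while the library totals spanned 46.1%. The normalized counts of these 3 genes were thus higher in the shallower library of all 4 groups. Between groups they were higher with SLNCR1 and SLNCR1 delta conserved than with vector, where depth and construct cannot be told apart.

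AKR1C1 and OSGIN1 were unlike FTL, FTH1 and TXN. AKR1C1 had 267 and 236 reads with SLNCR1, 184 and 173 with SLNCR1 conserved, 226 and 214 with SLNCR1 delta conserved, and 219 and 194 with vector. OSGIN1 had 307 and 257 reads with SLNCR1, 499 and 464 with SLNCR1 conserved, 267 and 229 with SLNCR1 delta conserved, and 629 and 587 with vector. AKR1C1 thus had more reads in the shallower SLNCR1 libraries than in the deeper vector libraries. Its reads with SLNCR1 delta conserved overlapped with those of vector. Against vector, depth and construct cannot be told apart for AKR1C1 and OSGIN1 either. The highest OSGIN1 library exceeded the lowest by 175%, more than the totals did. For the other 5 genes the span was 19.4% (TXNRD1) to 41.6% (AKR1C2).

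**Figure D3:**
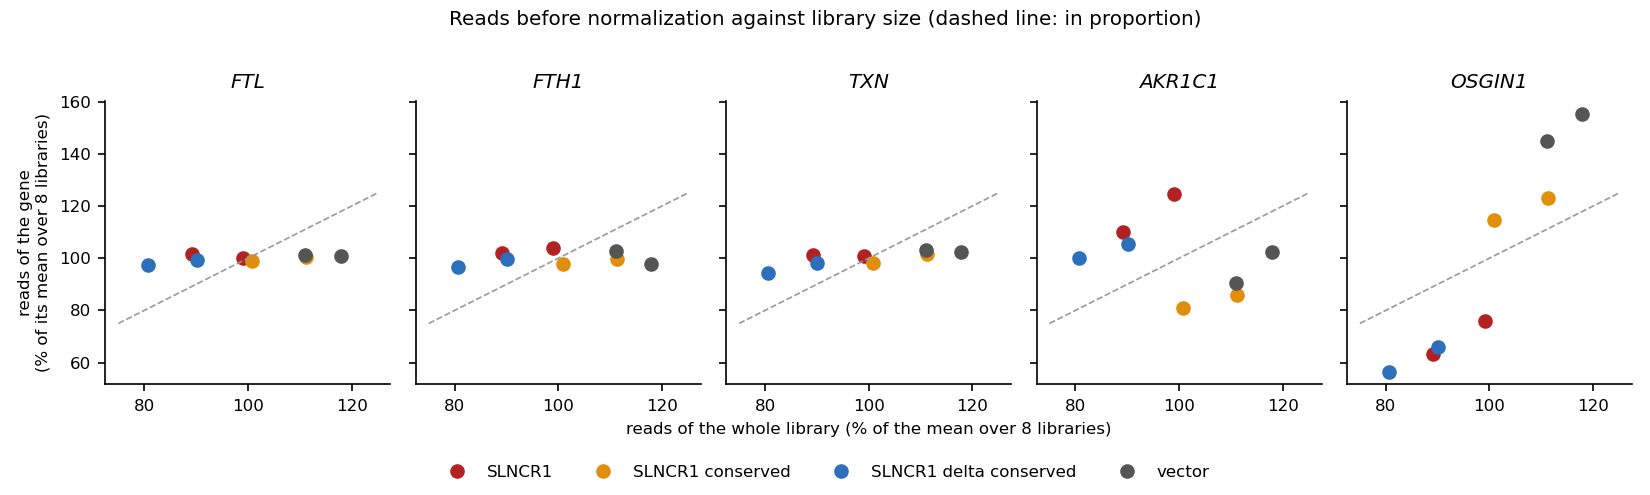
Reads of 5 genes before normalization (vertical axis) against the reads of the whole library (horizontal axis), each as percent of its mean over the 8 libraries, with a dashed line where a gene would follow depth in proportion. FTL, FTH1 and TXN lie near 100% at every depth, while AKR1C1 and OSGIN1 range more widely. On the vertical axis SLNCR1 delta conserved overlaps with vector for AKR1C1 and with SLNCR1 for OSGIN1.

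Within groups, where no construct differs, the shallower library had fewer reads in all by a mean log2 ratio of -0.13. The reads of FTL changed by -0.0060, of FTH1 by -0.0082 and of TXN by -0.023 on that scale, those of NQO1, TXNRD1, HMOX1 and AKR1C2 by -0.07 to -0.09, and those of AKR1C3 by -0.10, AKR1C1 by -0.13 and OSGIN1 by -0.17. Among 9115 genes with a mean of at least 200 reads, this change was graded by reads per base of transcript. Its median was -0.21 under 0.1 reads per base, -0.17 from 0.1 to 0.2, -0.14 from 0.2 to 0.4, -0.10 from 0.4 to 0.8 and -0.06 above 0.8. FTL, at 1.76 reads per base, ranked 28 of the 9115 by this level, TXNRD1 stood at 1.02, TXN at 0.917, NQO1 at 0.62, FTH1 at 0.51, HMOX1 at 0.383, AKR1C3 at 0.24 and OSGIN1 at 0.182. AKR1C2 and AKR1C1 had the lowest levels, 0.0596 and 0.0319, over principal transcripts of 3756 and 6705 bases, and shorter transcripts of these genes would give higher ones. The changes of FTL, TXN, FTH1, NQO1, HMOX1, AKR1C2 and AKR1C1 lay above the upper quartile of the genes in the same range of reads per base. For FTH1 that quartile was -0.072. The changes of TXNRD1, AKR1C3 and OSGIN1 lay between the quartiles. The normalized count was higher in the shallower library in all 4 groups for AKR1C2, AKR1C3, NQO1, TXN, FTH1 and FTL, as for 12.5% of all 16073 genes.

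**Figure D4:**
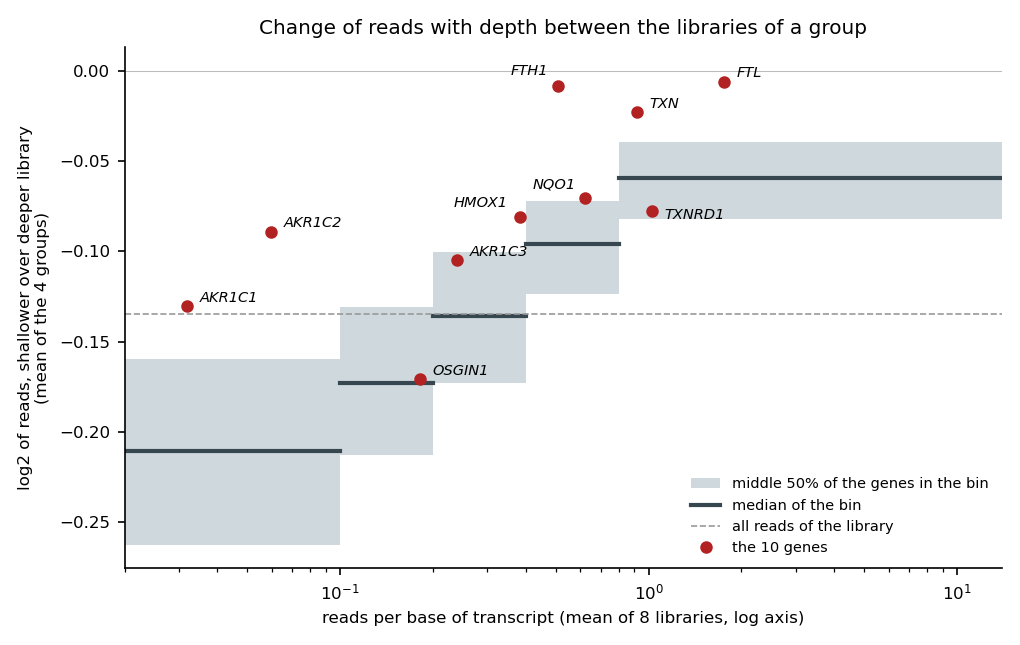
Log2 ratio of reads, shallower over deeper library of a group (mean of the 4 groups), against reads per base of transcript (log axis), with the median and middle 50% of genes in 5 bins and the 10 genes as points. FTL, FTH1 and TXN lie near 0, and OSGIN1 lies near -0.17, below the dashed line of all reads at -0.13.

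Libraries of different groups whose totals lay within 3% of each other gave a comparison at like depth, each a single pair without a test. SLNCR1 library a and SLNCR1 conserved library b differed in total by 1.82%. There the log2 difference, SLNCR1 minus SLNCR1 conserved, was 0.64 for AKR1C1 (269 against 173 normalized counts), 0.38 for AKR1C2, 0.30 for AKR1C3 and -0.59 for OSGIN1 (309 against 464). For NQO1 it was 0.08, for TXN 0.05, for TXNRD1 0.02, for HMOX1 0.14, for FTH1 0.10 and for FTL 0.03. SLNCR1 library b and SLNCR1 delta conserved library a differed in total by 1.06%, with a difference of 0.28 for AKR1C2 and between -0.07 and 0.16 for the other 9 genes. SLNCR1 conserved library a and vector library b differed in total by 0.163%, with differences of -0.23 for OSGIN1 and -0.18 for AKR1C2, and between -0.07 and 0.03 for the other 8. No SLNCR1 or SLNCR1 delta conserved library had a vector library of like depth.

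The log2 reads of each library were added to limma as a further term, an alternative chosen after seeing the data. Against vector, 0 of the 10 genes then passed with SLNCR1 or SLNCR1 delta conserved, and 47 and 13 of all 16073 genes. The libraries of both groups are all shallower than those of vector, so the term and the construct overlap. The fitted difference of OSGIN1 was then -0.75 (log2, adjusted p = 0.0767) and that of AKR1C1 0.53 (adjusted p = 0.584) with SLNCR1, close to the values without the term, while that of FTL was 0.010 and that of TXN 0.026. The rest were 0.27 for AKR1C3, 0.21 for AKR1C2, 0.10 for NQO1, 0.07 for FTH1, 0.03 for TXNRD1 and -0.04 for HMOX1.

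Setting the constructs against each other leaves the vector libraries out of the contrast. Full-length SLNCR1 against SLNCR1 conserved gave 4 of the 10 genes by limma, where 11.5% of genes passed, 2.05% higher and 9.46% lower. AKR1C1 was higher by 0.65 ± 0.11 (log2 ± SE, adjusted p = 0.000559), AKR1C2 by 0.45 ± 0.10 (adjusted p = 0.00877) and AKR1C3 by 0.34 ± 0.08 (adjusted p = 0.0094), and OSGIN1 fell by 0.62 (SE 0.09, adjusted p = 0.000131). The calls of AKR1C1 and OSGIN1 held with depth as a further term (0.61 and -0.59). The ferritins and thioredoxin did not pass, with differences of 0.22 for FTH1, 0.18 for FTL and 0.17 for TXN, and neither did NQO1 (0.17, adjusted p = 0.12), HMOX1 (0.13, adjusted p = 0.309) and TXNRD1 (0.05, adjusted p = 0.71). Without SLNCR1 library a, which leaves the shallower library alone, TXN, the ferritins and NQO1 passed (0.22 to 0.27, adjusted p = 0.0209 to 0.0332). Without SLNCR1 conserved library a the calls of AKR1C2 (0.40, adjusted p = 0.138) and AKR1C3 (0.33, adjusted p = 0.114) were lost, and without its library b that of AKR1C3 (0.36, adjusted p = 0.0801).

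SLNCR1 conserved against SLNCR1 delta conserved gave 6 of the 10 genes, where 6.89% of genes passed, 5.79% higher and 1.11% lower. OSGIN1 was higher with SLNCR1 conserved by 0.63 ± 0.09 (log2 ± SE, adjusted p = 0.00013). AKR1C1 fell by 0.63 (SE 0.11, adjusted p = 0.00103), AKR1C3 by 0.30 (adjusted p = 0.03), TXN by 0.28 (adjusted p = 0.0469), FTH1 by 0.32 (adjusted p = 0.0337) and FTL by 0.31 (adjusted p = 0.0233). The other 4 genes differed by -0.22 for AKR1C2 (adjusted p = 0.233), -0.20 for NQO1 (adjusted p = 0.094), -0.14 for TXNRD1 (adjusted p = 0.283) and -0.11 for HMOX1 (adjusted p = 0.498). With depth as a further term 0 of the 10 passed, and 56 of all 16073 genes. The differences of AKR1C1 and OSGIN1 were then -0.56 (adjusted p = 0.431) and 0.58 (adjusted p = 0.249), close to those without the term, that of AKR1C3 was -0.18, and those of TXN, FTH1 and FTL were 0.011, -0.011 and 0.022. Leaving out any of the 4 libraries ended the calls of AKR1C3, TXN and FTH1 (adjusted p = 0.0786 to 0.441), and leaving out any but SLNCR1 delta conserved library a that of FTL (0.0543 to 0.346), while NQO1 passed without either SLNCR1 library (-0.20, adjusted p = 0.0257). Both SLNCR1 conserved libraries (10280768 and 11339739 reads) were deeper than both SLNCR1 delta conserved libraries (8222868 and 9187241 reads).

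SLNCR1 against SLNCR1 delta conserved gave 0 of the 10 genes by limma, where 0% of the 16073 genes passed and 1285 had an unadjusted p under 0.05. Without SLNCR1 library a, 1227 genes passed, and still 0 of the 10. The differences ran from -0.13 for FTL (95% interval -0.30 to 0.04) to 0.23 for AKR1C2, with 0.02 for AKR1C1 (interval -0.20 to 0.25) and 0.01 for OSGIN1 (interval -0.17 to 0.20).

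Of 9 listed regulators of the pathway, BACH1 alone passed against vector by limma, lower with SLNCR1, where 7.4% of all genes were lower, and 0 passed in the authors' deposited table. NFE2L2 had 893 and 946 normalized counts with SLNCR1, 1044 and 1102 with SLNCR1 conserved, 929 and 991 with SLNCR1 delta conserved, and 982 and 1018 with vector. Its limma difference from vector was -0.12 (adjusted p = 0.271) with SLNCR1 and -0.06 (adjusted p = 0.677) with SLNCR1 delta conserved, and that of KEAP1 was 0.14 (adjusted p = 0.244) and 0.09 (adjusted p = 0.523). BACH1 fell by 0.46 with SLNCR1 (log2, SE 0.11, adjusted p = 0.0115), at 695 and 547 normalized counts against 854 and 842 with vector, and did not pass with SLNCR1 delta conserved (-0.12, adjusted p = 0.534) or in the authors' deposited table (-0.45, adjusted p = 0.169, for SLNCR1). Between constructs more of them passed. For SLNCR1 against SLNCR1 conserved, NFE2L2 (-0.22, adjusted p = 0.048), BACH1 (-0.64, adjusted p = 0.000581) and MAFF, a small MAF protein, (-0.38, adjusted p = 0.00313) were lower, where 9.46% of all genes were. For SLNCR1 conserved against SLNCR1 delta conserved, MAFF (0.43, adjusted p = 0.00172) and MAFK, another small MAF protein, (0.30, adjusted p = 0.0432) were higher, where 5.79% of all genes were. NRF2 activity is set largely at the protein level, which these data do not measure.

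Other genes of glutathione and cystine handling moved in both directions. Of 18 that could be tested by limma, 4 were higher with SLNCR1 (GPX1, GSTP1, MGST1, MGST3) and 2 lower, and 5 were higher with SLNCR1 delta conserved (GSTO1 besides) and 2 lower, while 0 passed with SLNCR1 conserved. Of all genes, 3.93% were higher and 7.4% lower with SLNCR1, and 5.18% and 5.24% with SLNCR1 delta conserved. The lower ones were CHAC1, a glutathione-degrading enzyme, at -0.80 with SLNCR1 (adjusted p = 0.00114) and -0.79 with SLNCR1 delta conserved (adjusted p = 0.00163), and SLC7A11, the cystine transporter and an NRF2 and ATF4 target, at -0.57 (adjusted p = 0.00097) and -0.32 (adjusted p = 0.0369). MGST1, a microsomal glutathione transferase, was higher by 0.34 (adjusted p = 0.00951) and 0.37 (adjusted p = 0.00559). The median of the list was 0.17 with SLNCR1 and 0.10 with SLNCR1 delta conserved. In the authors' deposited table CHAC1 alone of the list passed with SLNCR1, and CHAC1, GPX1, GSTP1 and MGST1 with SLNCR1 delta conserved.

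Of 15 other thioredoxin and peroxiredoxin genes, 4 were higher by limma with SLNCR1 (PRDX1, PRDX3, PRDX5, PRDX6) and 5 with SLNCR1 delta conserved (PRDX2 besides), and TXNRD2, SESN1 and SESN2 were lower with both, to be read against the same shares of all genes. Of the 15, 0 passed with SLNCR1 in the authors' deposited table, and PRDX1, PRDX3 and PRDX6 were higher and TXNRD2 and SESN1 lower there with SLNCR1 delta conserved. PRDX1, a peroxide reductase that thioredoxin recharges, differed by 0.28 (adjusted p = 0.0291) with SLNCR1 and 0.38 (adjusted p = 0.00476) with SLNCR1 delta conserved. SESN1, a stress-induced inhibitor of growth signaling, differed by -0.46 (adjusted p = 0.00779) and -0.50 (adjusted p = 0.00465). The median of the list was 0.12 with SLNCR1 and 0.18 with SLNCR1 delta conserved.

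AKR1B1, an aldose reductase, was the 1 of 6 other aldo-keto reductases that passed, at 0.28 with SLNCR1 (adjusted p = 0.0326) and 0.29 with SLNCR1 delta conserved (adjusted p = 0.0246), and it passed with neither in the authors' deposited table (adjusted p = 0.392 and 0.0949). Among all genes, 3.93% were higher than vector by limma with SLNCR1 and 5.18% with SLNCR1 delta conserved. The counts against vector of this and the following lists are to be read against those shares. Of 16 further NRF2-linked detoxification genes 0 passed against vector with any construct by limma or in the authors' deposited table, and 4 (CBR1, EPHX1, ABCC3 and BLVRB) were higher by limma with SLNCR1 than with SLNCR1 conserved, by 0.27 to 0.30 (adjusted p = 0.0121 to 0.0489), where 2.05% of all genes were. Of 11 genes of iron handling, PCBP1, an iron chaperone that loads ferritin, was higher with SLNCR1 (0.25, adjusted p = 0.039) and SLNCR1 delta conserved (0.32, adjusted p = 0.0123), and TFRC, the transferrin receptor, with SLNCR1 delta conserved (0.24, adjusted p = 0.0394). PCBP1 passed in the authors' deposited table with SLNCR1 delta conserved (adjusted p = 0.0347) and not with SLNCR1 (adjusted p = 0.497), and TFRC did not pass (adjusted p = 0.0503 for SLNCR1 delta conserved). Of 4 superoxide and peroxide enzymes, SOD1 and SOD2 were higher with both, SOD2, the mitochondrial dismutase, by 0.44 (adjusted p = 0.000898) and 0.36 (adjusted p = 0.00472). SOD2 passed with both in the authors' deposited table (adjusted p = 0.0125 and 0.00822), and SOD1 with neither (adjusted p = 0.368 and 0.0514). The list medians were 0.19 with SLNCR1 and 0.037 with SLNCR1 delta conserved for the aldo-keto reductases, 0.11 and 0.071 for detoxification, 0.11 and 0.13 for iron, and 0.20 with both for superoxide. The part of library depth in these lists was not tested.

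Across the 8 libraries the members fell into patterns that are given as a description of these libraries, which share their groups and depths. The log2 levels of TXN and FTL had a Pearson r of 0.998, TXN and FTH1 of 0.995, AKR1C1 and AKR1C3 of 0.978 and AKR1C1 and OSGIN1 of -0.956. Among 11218 genes with a mean of at least 100, the genes most like FTL included ACTB (r = 0.999) and HSPA8, densely read genes of the cytoskeleton and of protein folding. Those most like NQO1 were EIF3F (0.998), MGST1 and RPL7, and those most like TXNRD1 were HDLBP (0.995), HNRNPU and KPNB1. The genes most like AKR1C1 were AKR1C3, PSMF1 (0.973) and PCSK1 (0.972), and those most like OSGIN1 included C19orf44 (0.99) and AMBRA1 (0.989).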

How the data were processed

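RNA selected for poly(A) tails was sequenced from A375 cells in 4 groups of 2 libraries, with a kit that does not mark strand. The tools named in the submitters' processing notes are STAR, featureCounts and DESeq, on hg19, and the sources used here give no gene annotation. The 3 deposited tables each compare a construct with vector. Their signal columns hold the authors' size-factor normalized reads, averaged over a group, each table normalized on its own. The deposited fold is a ratio, construct over vector, of which log2 was computed. The p-value and adjusted p-value are the authors' own, per the file headers.

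Because a mean of 2 libraries can hold only certain steps, the whole reads behind it could be solved for each library. The solution was unique for 100% of genes with reads in 3 groups and 99.981% in SLNCR1 conserved, where 6 genes, none of them named here, had several. On simulated data 99.973% of genes had a single solution with 1 table, and all of those were right. Reads were scaled by median-of-ratios size factors over all 8 libraries. limma 3.58.1 (R 4.3.3) with a variance trend was fitted to log2(normalized count + 1) of 16073 genes with a mean of at least 10. Group was the only term, and p-values were Benjamini-Hochberg adjusted over those genes. The fit had 4 residual degrees of freedom and drew the variance of each gene towards the trend with 13.6 prior degrees. The limma p-values thus also rest on the spread of other genes. On simulated data it recovered 62.1% of genes changed 1.5-fold and 76.9% of those changed 2-fold for SLNCR1 against vector (8 of 163 calls false, 15997 genes). The share of false calls in the 8 libraries themselves, where depth and construct overlap in this comparison, was not tested. Python 3.11.15 with pandas 2.3.3 was used for the rest. Reads per base use the APPRIS principal transcript of GENCODE 29, the longest where there were several. Promoter windows are from RefSeq, which the reference given here holds for 8 of the 10 genes. Spreadsheet software had turned 28 identifiers into dates, and all 10 members matched a gene symbol.

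All 10 members were reported in every comparison, with up to 4 passing genes of each wider list by size of difference, apart from complete sets of passing genes, and the 3 most alike genes of 5 members. A few genes and one list that these rules take in are not reported here. The members, the lists and the tests were chosen with earlier results of these data known. Alternatives changed the pseudocount, the low-value filter, the scaling, the variance model, the groups fitted and the libraries included.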

Additional observations from a re-analysis of the deposited data

Results flagged for a closer look

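For 7 of the 10 genes the effects of 2 constructs differed from each other, by the limma test of the difference itself, after adjustment over all 16073 genes, of which 11.5% passed for SLNCR1 against SLNCR1 conserved and 6.89% for SLNCR1 conserved against SLNCR1 delta conserved. Full-length SLNCR1 minus SLNCR1 conserved was 0.65 for AKR1C1, 0.45 for AKR1C2, 0.34 for AKR1C3 and -0.62 for OSGIN1 (log2). SLNCR1 conserved minus SLNCR1 delta conserved was -0.63 for AKR1C1, -0.30 for AKR1C3, 0.63 for OSGIN1, -0.28 for TXN, -0.32 for FTH1 and -0.31 for FTL. The SLNCR1 conserved libraries were deeper than those of the other constructs in both comparisons, by 1.82% in the closest pair, and the part of depth in the values of TXN, FTH1 and FTL was not tested beyond the further term given with them.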

How the results depend on the processing

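Over 1020 recomputed values, 876 kept their direction and their side of the threshold, 106 lost the threshold, 8 gained it and 30 changed sign. The 876 include many values that had not passed in the first place and so had no call to lose. They are thus not the share of calls that held. The 30 include values that also lost their call. AKR1C1 and OSGIN1 kept their calls for SLNCR1 against vector under 16 of 17 alternatives and for SLNCR1 against SLNCR1 conserved under all 17. The number of the 10 genes that passed with SLNCR1 was 2 in the authors' deposited table and 8 by limma, and by limma 3 without a filter on low values, 2 without the variance trend, 5 with only the compared groups fitted and 0 with library depth as a further term. For SLNCR1 delta conserved against vector, 8 became 2 without the trend and 0 with the depth term. For SLNCR1 conserved against SLNCR1 delta conserved, 6 became 2 without the filter, 2 without the trend and 0 with the depth term, and for SLNCR1 against SLNCR1 conserved 4 became 2 with the depth term. Leaving out each library in turn gave 2 to 8 for SLNCR1 against vector (2 without vector library a, 3 without SLNCR1 library b), 0 to 0 for SLNCR1 conserved against vector, 1 to 8 for SLNCR1 delta conserved against vector (1 without its library b, 2 without vector library a), 0 to 0 for SLNCR1 against SLNCR1 delta conserved, 2 to 7 for SLNCR1 conserved against SLNCR1 delta conserved and 2 to 8 for SLNCR1 against SLNCR1 conserved (8 without SLNCR1 library a, 2 without SLNCR1 conserved library a). A group left with a single library is assumed to vary like the other groups. Among all genes, SLNCR1 against vector gave 1821 calls by limma, 490 without the filter, 247 without the trend, 853 with only the compared groups, 47 with the depth term, 335 without vector library a, 740 without SLNCR1 library b and 4323 without SLNCR1 library a. SLNCR1 delta conserved against vector gave 1674, and 207 without the trend, 656 without the filter, 13 with the depth term, 282 without vector library a and 319 without its library b. For SLNCR1 conserved against SLNCR1 delta conserved 1108 became 56 with the depth term, 311 without the trend and 3267 with only the compared groups, for SLNCR1 against SLNCR1 conserved 1850 became 302, 412 and 1195, and for SLNCR1 against SLNCR1 delta conserved 0 became 1227 without SLNCR1 library a. The causes were not tested.

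Among the values that changed sign with the depth term, TXN and FTL for SLNCR1 delta conserved against vector (0.39 and 0.44 without it) and for SLNCR1 conserved against SLNCR1 delta conserved (-0.28 and -0.31) had been called. With the term the values were, against vector, HMOX1 at -0.039 with SLNCR1, AKR1C3 at -0.0079 with SLNCR1 conserved (-0.0085 with scaling to library totals), and with SLNCR1 delta conserved AKR1C2 at -0.081, HMOX1 at -0.14, TXN at -0.00073 and FTL at -0.0056. For SLNCR1 against SLNCR1 delta conserved the depth term gave NQO1 0.055, OSGIN1 -0.010, TXN 0.027, FTH1 0.038 and FTL 0.016. For SLNCR1 conserved against SLNCR1 delta conserved it gave HMOX1 0.051, TXN 0.011, TXNRD1 0.021 and FTL 0.022, and for SLNCR1 against SLNCR1 conserved TXNRD1 -0.041 and FTL -0.0055. Leaving out single libraries moved HMOX1 between -0.096 and 0.035 with SLNCR1 conserved and between -0.0094 and 0.16 with SLNCR1 delta conserved, against vector. For SLNCR1 against SLNCR1 delta conserved it moved AKR1C1 between -0.031 and 0.073, AKR1C3 between -0.0026 and 0.087, NQO1 between -0.080 and 0.021, HMOX1 between -0.058 and 0.11, and OSGIN1 between -0.047 and 0.076.

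No paired analysis was possible because the solved libraries carry no replicate number. With 2 libraries a group and 173 to 267 reads for AKR1C1, counting error and the replicate spread limit small differences.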
